A study of Saccharomyces cerevisiae with 22 samples.

Results

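The genes described here are the sulfate assimilation and methionine genes of budding yeast, 33 genes chosen by systematic name from the MET, SUL, STR, CYS, HOM and SAM families with SAH1, MUP1, MHT1 and MMP1. They fall into 5 steps: sulfate uptake and reduction (10 genes), homocysteine and methionine (10), cysteine (4), S-adenosylmethionine (4) and regulators (5). Of these, 29 had at least 1 transcription start cluster assigned to them, among the 3872 genes that clusters name. The clusters of these genes numbered 37 of 5195. SUL1 and SUL2, the sulfate permeases, MET2, which acetylates homoserine, and MET32, a zinc finger regulator, had no cluster in the lines used here, and none lay on their strand from 500 bases before the coding start to the end of the coding region.

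Sulfate enters the cell through the permeases, is activated by MET3 and MET14, and is reduced to sulfide by MET16 and by the sulfite reductase of MET5 and MET10, which carries siroheme made by MET1 and MET8. MET17 joins sulfide to O-acetylhomoserine to give homocysteine, MET6 methylates homocysteine to methionine with a methyl group from the MET13 reductase, and SAM1 and SAM2 turn methionine into S-adenosylmethionine, the general methyl donor. Sulfur passes from homocysteine to cysteine through CYS4 and CYS3, and back through STR2 and STR3. Transcription of the pathway is driven by the activator Met4, which has no DNA binding of its own and is brought to promoters by Cbf1, Met31 and Met32 with Met28, and is restrained by the ubiquitin ligase subunit Met30 when sulfur compounds are plentiful.

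The data are TL-seq profiles, which sequence the capped 5′ ends of polyadenylated RNA and so count starts of transcripts, in bulk cultures of strain W303 grown in YPD. The labels give 22 libraries. Wild type is a pair of strains, swi3[delta]; SWI3::LEU2 and snf2[delta]; SNF2::LEU2, in which a deletion is complemented by the intact gene. The mutants carry, in the same form, swi3-E815X over swi3[delta], or snf2-W935R or snf2-Q928K over snf2[delta]. Swi/Snf, which moves and evicts nucleosomes, has Snf2 as its ATPase and Swi3 as a core subunit. Each of the 5 genotypes was left untreated or given 5 mM dithiothreitol (DTT), a reducing thiol that unfolds proteins in the endoplasmic reticulum, for 1 h, with 2 replicates per group collected on separate days. The other 2 libraries, SWI3 cells without the Cap-Clip enzyme that removes caps, are not used here. The number of clones behind a strain is not stated in the labels.

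Values come from 7 comparison tables that the authors deposited, with a log2 fold change, its standard error (SE) and a Benjamini-Hochberg adjusted DESeq2 p for each start cluster. A cluster is called higher or lower at an adjusted p under 0.05, and each gene is read at its main cluster, which has its highest mean normalized count in the wild-type table. No values per library were used, so SD and depth per library are unknown and ± is always the authors' SE. The mean of each group was derived from the deposited means and fold changes on the scale of the wild-type table, and is called the derived mean, in normalized counts. By these means the swi3 tables and the snf2 tables rest on different wild-type libraries, named here the swi3-table and snf2-table wild type, and their average gave the wild-type table within a robust SD of 0.00183 log2 units untreated and 0.00144 with DTT. In bulk cultures, fewer cells that express a gene and less RNA per cell cannot be told apart.

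DTT lowered most of the pathway in wild-type cells. Of the 29 measured genes 18 were lower (17.3% of all clusters tested were lower) and 1 was higher (16.5% of all clusters), and the median log2 fold change of the 29 was -1.37, against 0.01 over all clusters, in the authors' deposited table. By step, 4 of 8 genes of sulfate reduction, 8 of 9 of homocysteine and methionine, 3 of 4 of cysteine, 3 of 4 of S-adenosylmethionine and 0 of 4 regulators were lower. Among the regulators, MET28 and MET30 had an unadjusted DESeq2 p under 0.05, which makes 20 genes lower and 1 higher at that level (21.5% and 20.5% of all clusters). The medians of these steps in the authors' deposited table were -1.37, -1.74, -0.98, -2.73 and -0.42.

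**Figure D1:**
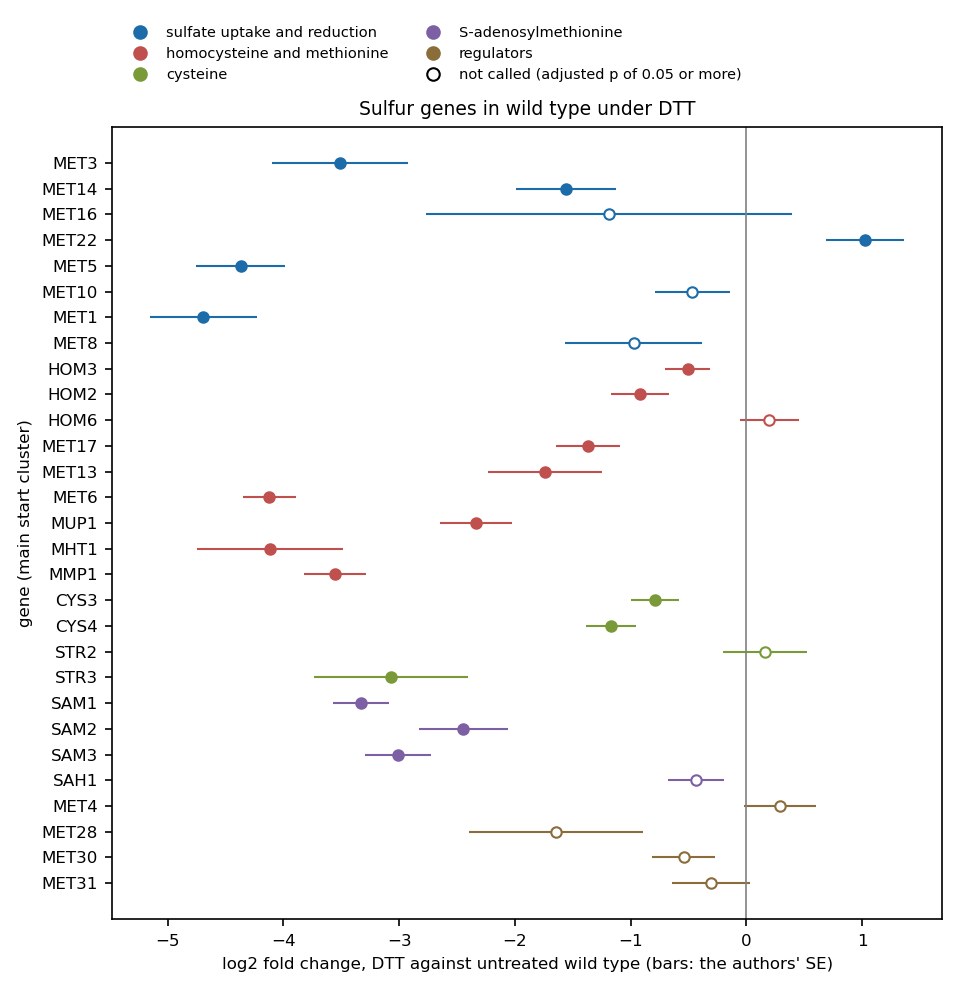
Log2 fold change, DTT against untreated wild type, of the main start cluster of each measured gene, with the authors' SE as bars and colours for the steps. Filled points are called; 18 lie below 0 and MET22 above it, and the regulators are open.

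In sulfate reduction the enzymes ranged from strongly lower to higher. MET3, ATP sulfurylase, had derived means of 87.8 and 72.2 in the untreated swi3-table and snf2-table wild type and 6.7 and 7.2 with DTT. In the authors' deposited table its change was -3.51 ± 0.59 on the log2 scale (DESeq2 adjusted p = 3.69e-08). MET5, the beta subunit of sulfite reductase, went from 466 and 669 to 25.3 and 29.4 in derived means, which the authors' deposited table gives as -4.37 ± 0.39 (log2, adjusted p = 1.78e-27). MET10, the alpha subunit, was at -0.47 ± 0.32 in the authors' deposited table and was not called, with derived means of 324 and 297 untreated and 268 and 182 with DTT. Whether the subunits differ from each other was not tested.

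MET1, which methylates uroporphyrinogen on the way to siroheme, had derived means of 363 and 306 untreated and 9.96 and 16.0 with DTT at its main cluster. Its log2 fold change of -4.69 ± 0.46 was the lowest of the 29 in the authors' deposited table (adjusted p = 1.91e-22). MET8, which completes siroheme, was at -0.97 ± 0.59 in the authors' deposited table and was not called. MET14, adenylylsulfate kinase, fell by -1.56 ± 0.43 in the authors' deposited table, and the size differed between the wild types, with derived means of 185 to 91.7 in the swi3-table set and 252 to 57.0 in the snf2-table set. MET16, which reduces phosphoadenylylsulfate, was scarce in both treatments (19.3 and 8.5 as wild-type means) and was not called. Its derived mean went from 9.0 to 10.8 in the swi3-table wild type and from 29.9 to 6.2 in the snf2-table wild type. MET22, which hydrolyses the phosphoadenosine phosphate left by that reduction, was the gene that rose (1.02 ± 0.34, adjusted p = 0.0106, authors' deposited table), from derived means of 1608 and 1305 to 2715 and 3193.

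Among the methionine genes, MET6, methionine synthase (YER091C, chromosome V, cluster 342221 to 342322), had derived means of 2823 and 3803 untreated and 179.9 and 201 with DTT. Its fall of -4.12 ± 0.23 had an adjusted p of 1.22e-68 in the authors' deposited table. Genes for uptake and use of S-methylmethionine were lower too. MHT1, the S-methylmethionine-homocysteine methyltransferase, was at -4.12 ± 0.63 and its divergent neighbour MMP1, the S-methylmethionine permease, at -3.55 ± 0.27 in the authors' deposited table. MUP1, the high-affinity methionine permease, fell by -2.34 ± 0.31, MET13 by -1.74 ± 0.50 and MET17 by -1.37 ± 0.28 in the authors' deposited table. The earlier steps from aspartate to homoserine moved less. HOM3, aspartate kinase, was at -0.51 ± 0.20 and HOM2, aspartate semialdehyde dehydrogenase, at -0.91 ± 0.25 in the authors' deposited table, both called, while HOM6, homoserine dehydrogenase, was at 0.20 ± 0.25 and was not. The HOM2 cluster is also assigned to YDR157W, so its value cannot be given to HOM2 alone.

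In the cysteine step, STR3, cystathionine beta-lyase, fell by -3.07 ± 0.66, CYS4, cystathionine beta-synthase, by -1.17 ± 0.22 and CYS3, cystathionine gamma-lyase, by -0.79 ± 0.21 in the authors' deposited table. STR2, cystathionine gamma-synthase, was at 0.16 ± 0.37 in the authors' deposited table and was not called. In the last metabolic step, the synthetases SAM1 and SAM2 and the S-adenosylmethionine permease SAM3 fell, by -3.33 ± 0.24, -2.45 ± 0.38 and -3.01 ± 0.28 in the authors' deposited table. SAM1 had derived means of 3030 and 2827 untreated and 227 and 356 with DTT. SAM1 and SAM2 are close paralogs, and how reads that match both were counted is not given in the sources used here. SAH1, which hydrolyses S-adenosylhomocysteine, was at -0.43 ± 0.24 in the authors' deposited table and was not called.

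None of the regulators was called under DTT. MET4 had derived means of 728 and 449 untreated and 829 and 609 with DTT, which overlap, and the authors' deposited table puts it at 0.29 ± 0.31. MET31 was at -0.31 ± 0.33, MET30 at -0.54 ± 0.27 and MET28 at -1.65 ± 0.75 in the authors' deposited table. At MET28 the derived mean went from 28.6 to 24.9 in the swi3-table wild type and from 71.4 to 7.3 in the snf2-table wild type.

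Sequence before the start clusters was read because most of the genes fell under DTT. In the R64 reference (strain S288C, not W303), the 250 bases before the 5′ edge of each main cluster were searched on both strands for CACGTG, the Cbf1 core, AACTGTG, the core bound by Met31 and Met32, and TGACTC, the core of the amino acid starvation regulator Gcn4. CACGTG stood in 14 of 29 windows (48.3%), against 171 of the windows before all 3799 main clusters. AACTGTG stood in 13 of 29 (44.8%), against 2.92% of all, and TGACTC in 8 of 29 (27.6%), against 7.79%. Both CACGTG and AACTGTG were in the windows of MET1, MET28 and MET30, 3 of the 12 such windows among all main clusters. A match is letters in a window and not a bound site.

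The motifs were spread unevenly over the steps. AACTGTG alone of that pair was before SAM1, SAM2, SAM3, MET6, MET17, MUP1, MHT1, MMP1, MET3 and CYS4, while CACGTG alone was before MET14, MET16, MET22, MET5, MET10, MET8, HOM3, HOM6, CYS3, SAH1 and MET4. The 13 genes with AACTGTG had a median log2 fold change under DTT of -3.01, and the 16 without it -0.65, computed from the authors' deposited table. The 14 genes with CACGTG had a median of -0.67 and the others -2.45, computed from the same deposited table. Over all main clusters in the authors' deposited table the medians were -0.12 with AACTGTG and -0.07 with CACGTG. These are descriptions with no test. Apart from MET1 and MET5, whose match lay 206 and 220 bases before the cluster, CACGTG matches lay 95 to 141 bases before it.

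**Figure D2:**
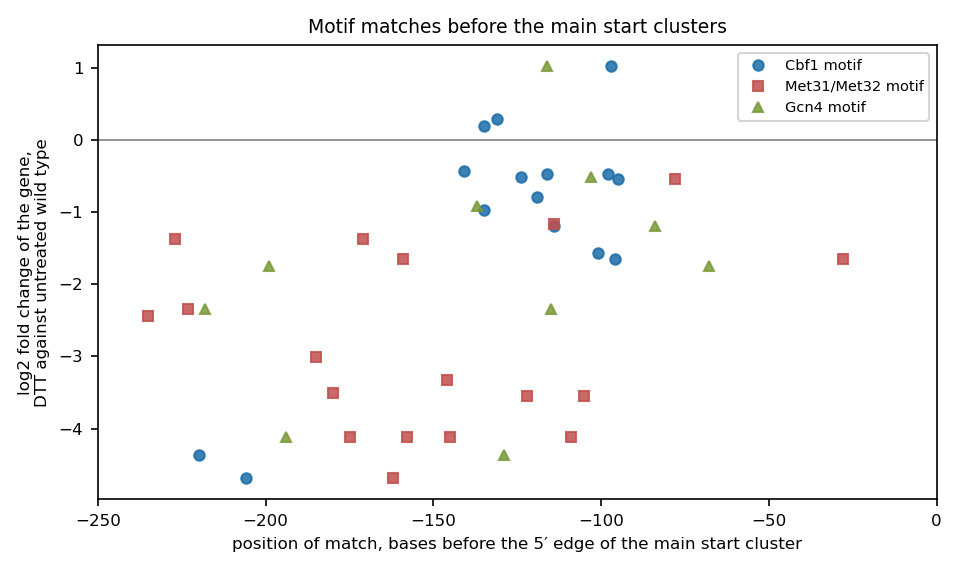
Position of each motif match in the 250 bases before the main start cluster (horizontal axis, bases before the 5′ edge of the cluster) against the log2 fold change of that gene under DTT in wild type (vertical axis). Each point is a match; a gene with several matches has several points at its own height, from 1.02 at MET22 to -4.69 at MET1.

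Windows are shown for MET6 and MET13, called in 4 tables, MMP1 and SAM3, called in 3, and MET17, which has the highest wild-type mean of the genes with a match that were called in 2. They are printed 5′ to 3′ on the strand of the gene, with matches in capitals. AACTGTG or its reverse complement CACAGTT marks MET6, MMP1, SAM3 and MET17, and TGACTC or GAGTCA marks MET13, 68 and 199 bases before the cluster, and MET6, 194 bases before it. The windows are chrV:342323-342572 (minus strand) for MET6, chrVII:272091-272340 (plus strand) for MET13, chrXII:17663-17912 (plus strand) for MMP1, chrXVI:22616-22865 (plus strand) for SAM3 and chrXII:732249-732498 (plus strand) for MET17, build R64.
MET6: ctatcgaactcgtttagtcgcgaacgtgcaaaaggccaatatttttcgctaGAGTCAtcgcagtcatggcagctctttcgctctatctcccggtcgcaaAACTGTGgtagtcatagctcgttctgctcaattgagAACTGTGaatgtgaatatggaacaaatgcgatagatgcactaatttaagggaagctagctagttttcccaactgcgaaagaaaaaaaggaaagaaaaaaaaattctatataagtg
MET13: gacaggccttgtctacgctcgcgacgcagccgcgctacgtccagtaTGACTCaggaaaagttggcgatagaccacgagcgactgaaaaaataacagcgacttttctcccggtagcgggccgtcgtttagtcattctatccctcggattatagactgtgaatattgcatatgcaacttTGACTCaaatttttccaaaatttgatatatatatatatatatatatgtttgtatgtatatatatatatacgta
MMP1: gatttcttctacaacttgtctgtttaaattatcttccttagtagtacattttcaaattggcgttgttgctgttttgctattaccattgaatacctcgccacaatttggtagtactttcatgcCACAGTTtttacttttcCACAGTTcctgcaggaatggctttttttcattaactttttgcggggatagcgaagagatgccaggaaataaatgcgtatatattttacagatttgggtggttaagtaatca
SAM3: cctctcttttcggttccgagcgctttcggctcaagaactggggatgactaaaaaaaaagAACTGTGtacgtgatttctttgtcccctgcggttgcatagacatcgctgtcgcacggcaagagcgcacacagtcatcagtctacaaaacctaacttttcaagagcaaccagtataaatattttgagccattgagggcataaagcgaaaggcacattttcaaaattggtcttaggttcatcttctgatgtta
MET17: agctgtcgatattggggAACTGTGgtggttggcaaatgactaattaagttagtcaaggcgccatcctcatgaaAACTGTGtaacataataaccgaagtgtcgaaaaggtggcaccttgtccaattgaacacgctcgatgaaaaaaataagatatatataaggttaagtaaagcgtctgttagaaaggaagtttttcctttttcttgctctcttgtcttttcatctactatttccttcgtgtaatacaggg
The MMP1 pair of matches, at bases 17785 to 17791 and 17802 to 17808 of chromosome XII, is the same pair that lies before MHT1 on the other strand. Both genes were lower under DTT in wild type.

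Start choice also changed at several members. Of the 29 genes 6 had a second cluster, and 3 of the 8 secondary clusters shifted against the main cluster of their gene in wild type (14.7% of such pairs over all genes shifted), by a normal test of the difference of deposited log2 fold changes with Benjamini-Hochberg adjustment over 707 pairs, a test added after seeing the data. At MET1 (YKR069W) the secondary cluster lies at 571433 to 571464 of chromosome XI, 164 bases before the coding start, and the main cluster at 571555 to 571573, 48 bases before it. The secondary MET1 cluster had derived means of 34.3 and 41.0 untreated and 21.0 and 70.0 with DTT, which overlap, while the main cluster fell. Its share of MET1 starts was thus 8.6% and 11.8% untreated and 67.9% and 81.4% with DTT, and the log2 fold changes of the clusters differed by 4.97 ± 0.82 (adjusted p = 5.09e-08, both fold changes from the authors' deposited table).

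At MET13 (YGL125W) the secondary cluster, 273076 to 273146 of chromosome VII, is inside the coding region, 591 bases past its start. It rose (2.33 ± 0.84, adjusted p = 0.0203, authors' deposited table), from derived means of 10.96 and 9.7 to 47.9 and 56.6. The share of MET13 starts inside the gene was 16.0% and 8.7% untreated and 63.1% and 73.6% with DTT. A cluster inside MET30, 269057 to 269100 of chromosome IX, was called higher (adjusted p = 0.00234 in the authors' deposited table). Its derived means were 2.3 and 0.17 untreated and 17.6 and 48.8 with DTT, so no fold is given. Whether 5′ ends inside these genes carry a cap cannot be read from the values used here, and the test takes the clusters of a gene as independent.

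**Figure D3:**
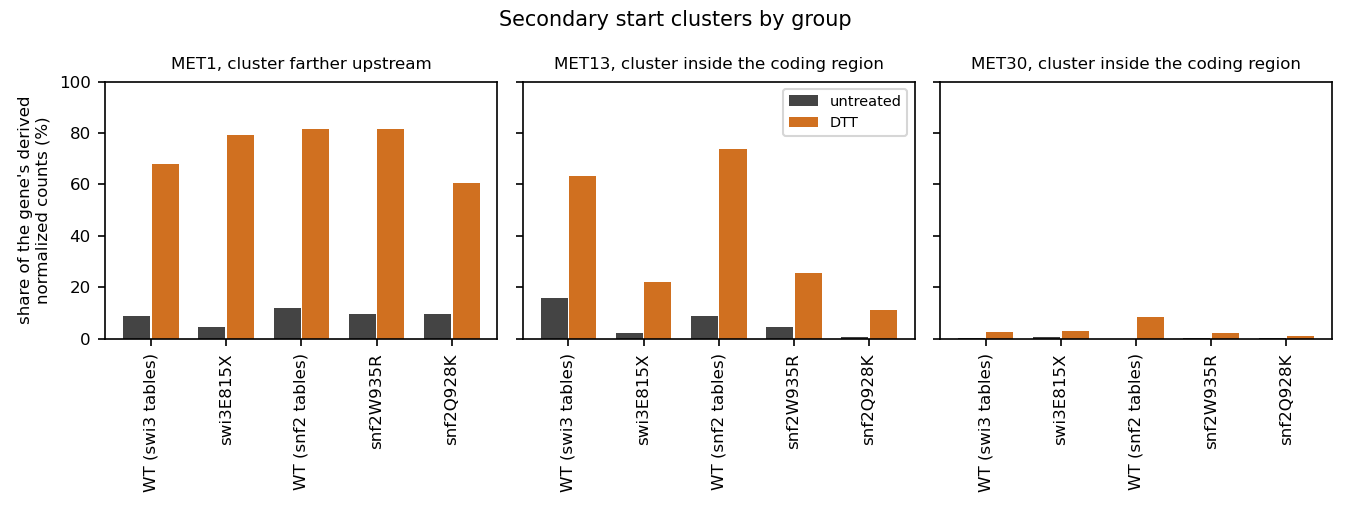
Share of each gene's derived normalized counts (vertical axis, percent) in the secondary cluster of MET1, MET13 and MET30, by group, untreated in grey and DTT in orange. The MET1 share is at least 60.7% with DTT in every group; the MET13 share with DTT is 63.1% and 73.6% in the wild types and between 11.1% and 25.4% in the mutants.

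In untreated swi3E815X cells, MET3, MET14 and MET16 of sulfate reduction, MET13 and MET6 of methionine synthesis and STR3, on the route from cysteine back to homocysteine, were higher than in wild type. Of 29 genes 6 were higher (0.463% of all clusters were higher) and 0 lower (1.35% of all clusters), by DESeq2, and at an unadjusted p under 0.05 12 were higher and 3 lower (3.28% and 6.33% of all clusters). The median log2 fold change was 0.69, against 0.01 over all clusters, in the authors' deposited table. In sulfate reduction all 8 genes had fold changes above 0 (50.6% of all clusters were above 0) and 3 were called.

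MET13 was at 2.47 ± 0.47 in the authors' deposited table (adjusted p = 4.2e-05), with derived means of 320 in the mutant and 57.7 in its wild type. STR3 was at 1.78 ± 0.43, MET14 at 1.60 ± 0.45, MET3 at 1.57 ± 0.45 and MET6 at 0.98 ± 0.28 in the authors' deposited table. MET16 was at 3.51 ± 0.98 in the authors' deposited table, from derived means of 9.0 in wild type and 103 in the mutant. That wild-type mean was the lower of the pair, since MET16 was at 29.9 in the untreated snf2-table wild type. MET8 was at 1.83 ± 1.48 in the authors' deposited table and was not called. Set against the snf2-table wild type, the derived log2 ratios of the 6 called genes were 1.64 for MET13, 1.57 for STR3, 1.15 for MET14, 1.85 for MET3, 0.55 for MET6 and 1.79 for MET16. All were above 0, but without a test. The MET6 ratio was smaller than the robust SD of 0.616 of the log2 ratio between the untreated wild-type sets. None of the S-adenosylmethionine genes was called, with SAM1 at -0.67 ± 0.31, SAM2 at 0.40 ± 0.35 and SAM3 at 0.96 ± 0.33 in the authors' deposited table.

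With DTT, swi3E815X cells had 0 of 29 genes higher and 0 lower by DESeq2 (0.212% and 1.17% of all clusters), and at an unadjusted p under 0.05 HOM3 and MMP1 were higher and HOM6 lower (2.58% and 4.87% of all clusters). The median was 0.11 in the authors' deposited table. Largest were MET13 at 1.20 ± 0.70, MMP1 at 0.86 ± 0.40 and MET8 at 0.73 ± 0.50 in the authors' deposited table. The change of the swi3E815X effect between treatments was called at 0 of 29 genes by a normal test of the difference with Benjamini-Hochberg adjustment (0.0386% of all clusters were called), and 2 had an unadjusted p under 0.05 (3.82% of all clusters). These were MET14, whose effect was lower with DTT by a difference of -2.05 (95% interval -3.33 to -0.76, adjusted p = 0.423), and MET16, at -3.10 (-5.86 to -0.34). At single genes, the missing calls with DTT therefore do not show that the untreated increase was lost. In direction, the swi3E815X effect was lower with DTT than untreated at 25 of the 29 genes. The median difference was -0.55, against 0.00 over all clusters. This direction of the genes as a set was not tested.

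**Figure D4:**
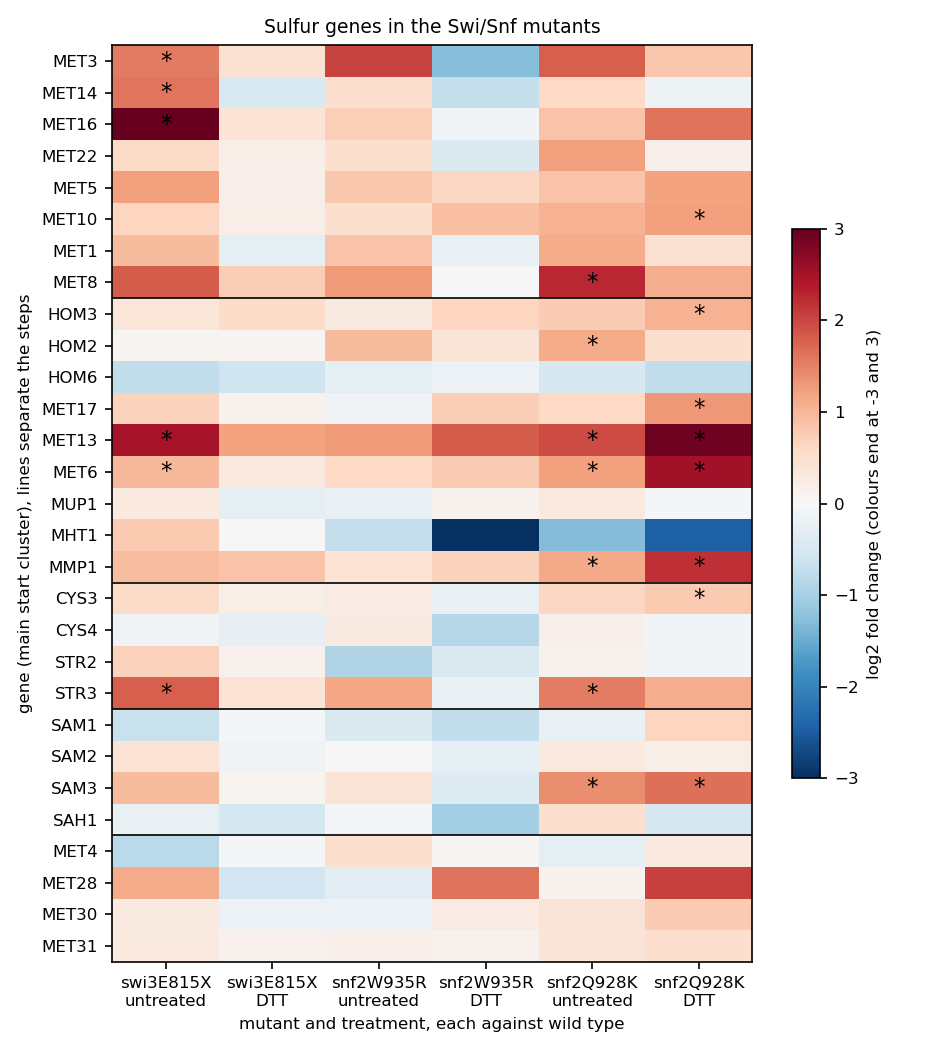
Log2 fold change (colour) of the main start cluster of each measured gene in the 6 mutant comparisons, from the authors' deposited tables, with asterisks on called values and lines between the steps. Colours end at -3 and 3, so MET16 in untreated swi3E815X (3.51) and MHT1 in DTT-treated snf2W935R lie past the scale. Every asterisk is on an increase, and the snf2W935R columns have none.

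In snf2W935R cells no gene of the pathway was called in either treatment by DESeq2. Untreated, 0 of 29 were higher (0.945% of all clusters) and 0 lower (1.79%), while 6 were higher and 0 lower at an unadjusted p under 0.05 (4.65% and 5.46% of all clusters). The median was 0.40 in the authors' deposited table, and all 8 genes of sulfate reduction were above 0 (49.1% of all clusters were). MET3 was at 2.03 ± 0.71 (adjusted p = 0.106), MET13 at 1.29 ± 0.51 and MET8 at 1.27 ± 0.54 in the authors' deposited table. Set against the swi3-table wild type, the derived log2 ratios were 1.75, 2.12 and 1.12, with no test. MET3 had a derived mean of 295 in untreated snf2W935R, beside 251 in snf2Q928K, 260 in swi3E815X and 87.8 and 72.2 in the wild types, so that the mutant means lay above both wild types. With DTT, 0 of 29 were higher (2.54% of all clusters) and 0 lower (2.83%), and 3 were higher and 3 lower at an unadjusted p under 0.05 (8.49% and 7.57% of all clusters). The median with DTT was -0.08 in the authors' deposited table, with 14 genes above 0 and 15 below (50.5% of all clusters were above 0). All 4 cysteine genes and all 4 S-adenosylmethionine genes were below 0, and all 4 measured regulators above it. MET13 was at 1.81 ± 0.82 and MET28 at 1.63 ± 1.43 in the authors' deposited table. MHT1 had a derived mean of 0.88 in DTT-treated snf2W935R and 20.0 in its wild type, and was not called (adjusted p = 0.199 in the authors' deposited table).

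In snf2Q928K cells 4 of 9 homocysteine and methionine genes were higher untreated and 5 of 9 with DTT. Untreated, 7 of 29 were higher (2.82% of all clusters) and 0 lower (3.74%), with 14 higher and 1 lower at an unadjusted p under 0.05 (6.89% and 8.52% of all clusters). With DTT, 8 of 29 were higher (7.34% of all clusters) and 0 lower (7.18%), with 12 and 1 at an unadjusted p (12.3% and 12.7% of all clusters). MET6, MET13, MMP1 and SAM3 were called in both, 57.1% of the 7 and 50% of the 8. The share of all clusters called in both treatments is not given here. The medians were 0.62 untreated and 0.76 with DTT in the authors' deposited tables, against -0.04 and 0.00 over all clusters.

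MET6 had derived means of 3803 in untreated wild type and 8947 in untreated snf2Q928K, and of 201 and 1143 with DTT. Its log2 fold changes were 1.23 ± 0.29 untreated (adjusted p = 0.000886) and 2.51 ± 0.28 with DTT (adjusted p = 1.42e-16) in the authors' deposited tables. MET13 went from 103 to 397 untreated and from 20.3 to 152 with DTT in derived means. Its log2 fold changes were 1.95 ± 0.43 and 2.91 ± 0.57 in the authors' deposited tables, and against the swi3-table wild type its derived log2 ratios were 2.78 and 2.44. MMP1 was at 1.13 ± 0.28 and 2.19 ± 0.40, and SAM3 at 1.40 ± 0.35 and 1.64 ± 0.39, in the authors' deposited tables. MHT1, which shares its upstream region with MMP1, had derived means of 259 in wild type and 105 in snf2Q928K untreated and 20.0 and 3.7 with DTT, and was called in neither.

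Called untreated alone were MET8 at 2.27 ± 0.42, STR3 at 1.53 ± 0.39 and HOM2 at 1.12 ± 0.35 in the authors' deposited table. MET3, at 1.80 ± 0.68 in the authors' deposited table, was not called. Called with DTT alone were MET17 at 1.31 ± 0.25, MET10 at 1.24 ± 0.37, HOM3 at 1.05 ± 0.26 and CYS3 at 0.79 ± 0.26 in the authors' deposited table. MET17 had a derived mean of 31750 in DTT-treated snf2Q928K, beside 12805 in its wild type, 13366 in the swi3-table wild type and 21338 in snf2W935R. None of these 7 genes had a change of effect between treatments that passed the test. That test called 0 of 29 genes in snf2Q928K (1.41% of all clusters), with 6 at an unadjusted p under 0.05 (10.4% of all clusters). The smallest adjusted p, 0.0838, was at MET6, where the effect was larger with DTT by 1.28 (95% interval 0.48 to 2.07). Of the other genes among the 6, the difference was above 0 at MMP1 (1.06) and SAM1 (0.88). It was below 0 at MET22 (-1.09), MET8 (-1.18) and SAH1 (-1.01). In snf2W935R the same test called 0 of 29 (0.869% of all clusters), with CYS4 and SAH1 at an unadjusted p under 0.05 (10.3% of all clusters).

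**Figure D5:**
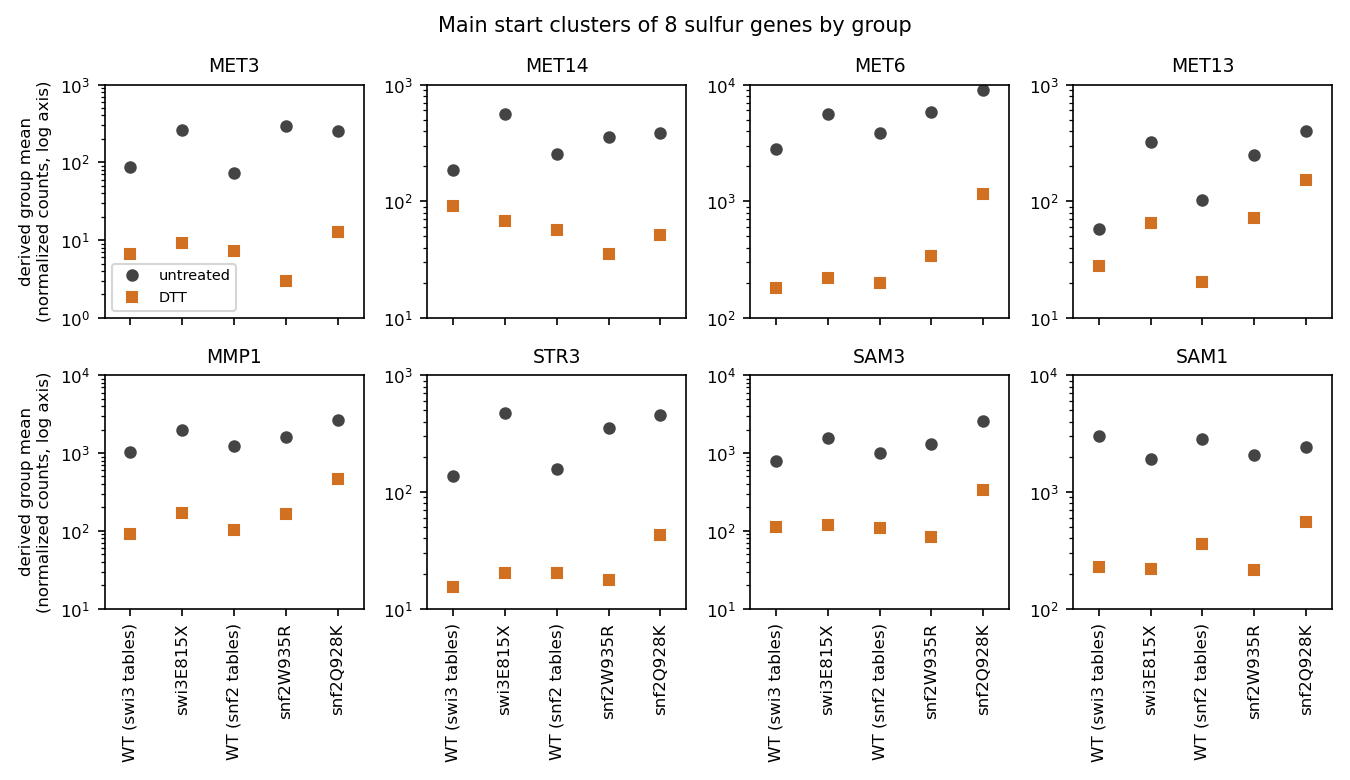
Derived group means of the main start cluster (vertical axis, normalized counts on a log axis) of genes from several steps, untreated as circles and DTT as squares, in both wild types and the mutants. DTT means lie below untreated means of the same group in every panel, and MET6, MMP1 and SAM3 are highest in snf2Q928K in both treatments.

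The snf2 alleles were set against each other by the difference of their deposited log2 fold changes. Both share the same wild-type libraries, so the SE used is too large and the test conservative. It called 0 of 29 genes untreated (0.174% of all clusters) and 0 of 29 with DTT (0.289%), with 0 and 5 at an unadjusted p under 0.05 (1.8% and 3.02% of all clusters). With DTT the 5 were MET6, SAM3, SAM1, CYS3 and MMP1, each higher in snf2Q928K. MET6 differed by 1.75 (95% interval 0.75 to 2.76, adjusted p = 0.185) and SAM3 by 2.04 (0.63 to 3.44, adjusted p = 0.733). At single genes, the calls in snf2Q928K and their absence in snf2W935R are therefore not shown to be a difference between the alleles. In direction, 24 of 29 genes were higher in snf2Q928K than in snf2W935R untreated and 27 of 29 with DTT. The median differences were 0.37 and 0.58, against -0.04 and -0.01 over all clusters. This direction of the genes as a set was not tested.

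Calls of swi3E815X and snf2Q928K, which rest on different wild-type libraries, can be set side by side. Untreated, 3 genes were higher in both, MET13, MET6 and STR3, 50% of the 6 in swi3E815X and 42.9% of the 7 in snf2Q928K. The share of all clusters higher in both is not given here, so this sharing cannot be called particular to the pathway. Most of the pathway was lower with DTT than without it in each mutant, too. Derived DTT responses had a median of -1.04 in the swi3-table wild type, -2.15 in the snf2-table wild type, -2.31 in swi3E815X, -1.96 in snf2W935R and -1.39 in snf2Q928K. In every group 24 to 26 of the 29 genes were below 0. Over all clusters of the wild-type table the median was 0.01, and 50.2% were above 0. Medians and shares over all clusters within each mutant are not given here, so these counts cannot be called particular to the pathway in the mutants. At MET6 the derived response was -3.97 and -4.25 in the wild types, -4.65 in swi3E815X, -4.09 in snf2W935R and -2.97 in snf2Q928K.

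Start choice at MET13 also shifted in snf2Q928K under DTT. The cluster inside the gene made up 11.1% of MET13 starts there, 22.1% in swi3E815X and 25.4% in snf2W935R. In snf2Q928K with DTT the fold change of the inner MET13 cluster lay below that of the main one by a difference of -4.49 ± 1.01 (adjusted p = 0.000215, from the authors' deposited table), and at MET30 by -3.39 ± 1.05 (adjusted p = 0.012). Of all such pairs 15.7% shifted in that table. In the other mutant comparisons none of the secondary clusters of these genes shifted by this test (1% of all pairs in untreated swi3E815X, 2.4% with DTT, 3.71% in untreated snf2W935R, 5.94% with DTT and 6.26% in untreated snf2Q928K). The derived means of the inner MET13 cluster were 18.3 to 24.3 in the mutants with DTT and 47.9 and 56.6 in the wild types, not called in any mutant table.

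Other genes tied to the pathway, 34 in a list of partner regulators, scavenging, glutathione, thioredoxin, methionine salvage and S-adenosylmethionine use, had 29 measured. In wild type 9 were lower and 3 higher under DTT, beside 17.3% and 16.5% of all clusters. The lowest was OPT1, a glutathione and oligopeptide transporter, with wild-type means of 107 untreated and 1.7 with DTT. MUP3, a low-affinity methionine permease, fell by -2.48 ± 1.00, SHM2, serine hydroxymethyltransferase, by -2.16 ± 0.27, ADI1 of methionine salvage by -1.88 ± 0.48 and ADO1, adenosine kinase, by -1.86 ± 0.20 in the authors' deposited table. TRX2, thioredoxin, rose by 2.77 ± 0.21, OPI3, a phospholipid methyltransferase, by 2.08 ± 0.26 and SKP1, a subunit of the Met30 ubiquitin ligase, by 0.74 ± 0.27 in the authors' deposited table. CBF1 had no call in any table, with wild-type means of 40.6 untreated and 8.8 with DTT. It was at -2.20 ± 0.95 in wild type under DTT (DESeq2 adjusted p = 0.0578). In untreated snf2Q928K it was at -4.10 ± 1.42 (DESeq2 adjusted p = 0.0566), in the authors' deposited tables. Only in DTT-treated snf2W935R was its fold change above 0 (0.01 ± 2.22).

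Of these 29 genes 0 were called in untreated swi3E815X by DESeq2 (0.463% of all clusters higher, 1.35% lower), and 1 was higher and 1 lower with DTT (0.212% and 1.17%). In snf2W935R 0 were higher and 1 lower untreated (0.945% and 1.79%), and 1 and 1 with DTT (2.54% and 2.83%). In snf2Q928K 0 were higher and 2 lower untreated (2.82% and 3.74%), and 4 and 4 with DTT (7.34% and 7.18%). SHM2 was higher with DTT in swi3E815X (1.29 ± 0.29) and snf2Q928K (1.54 ± 0.29) in the authors' deposited tables. OPT1 was lower untreated in snf2W935R (-2.83 ± 0.72) and snf2Q928K (-2.56 ± 0.70), and CHO2, the other phospholipid methyltransferase, was lower in snf2Q928K in both treatments (-1.85 ± 0.43 and -2.02 ± 0.55) and in snf2W935R with DTT (-1.97 ± 0.65), in the authors' deposited tables. OPI3 was lower with DTT in swi3E815X (-1.21 ± 0.27) and snf2Q928K (-1.04 ± 0.27) in the authors' deposited tables. SAM4, which uses S-adenosylmethionine to methylate homocysteine (0.87 ± 0.25), ADI1 (1.55 ± 0.56) and ADO1 (0.75 ± 0.26) were higher, and TRX2 (-1.11 ± 0.22) and GSH1, which starts glutathione synthesis (-0.67 ± 0.23), lower in DTT-treated snf2Q928K in the authors' deposited table. THR4, threonine synthase, was higher in DTT-treated snf2W935R (1.17 ± 0.35) in the authors' deposited table.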

How the data were processed

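The submitters' processing notes name cutadapt, HISAT2, DESeq2 and the build sacCer3/R64, without roles or versions. Each line holds a consensus start cluster and its gene, per the file headers. The authors' mean normalized count is a signal averaged over the libraries of a comparison. The log2 fold changes, their SEs and the Wald statistic, a score equal to log2 fold change over SE, were deposited by the authors, as were the p-value and adjusted p-value columns. The 14 emptied and 6 stray lines over the 7 tables were not used. Depth per library is unknown.

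Group means were derived from each mean and fold change. Those of the swi3E815X and snf2Q928K comparisons were scaled to the wild-type table by least squares. Those of the snf2W935R comparisons were brought to the snf2Q928K comparison of the same treatment by the median ratio of the wild-type means. That step takes both snf2 comparisons to share their wild-type libraries. Differences of fold changes had as SE the root of both squared SEs summed and a two-sided normal test, adjusted over all clusters, after a check on simulated data. The members, lists and tests were chosen with earlier results of these data known; the test of secondary clusters, the division by wild-type set and the 500-base window were added after seeing the data. Text names every member at its main cluster in wild type, and in each mutant table those called and the 3 of largest change; of the other pathway genes, up to 5 called per direction. Groups were assigned from sample titles. Promoter bases came from the R64 assembly of RefSeq, whose chromosome names and coordinates match the files. Versions were scipy 1.17.1, numpy 2.4.6, matplotlib 3.10.9, pandas 2.3.3 and python 3.11.15.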

Additional observations from a re-analysis of the deposited data

How the results depend on the processing

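Of 330 recalculated values, 300 kept their direction and stayed close to the reported value or on the same side of the threshold, 8 single genes lost their call at an adjusted p under 0.01, 22 moved, of them 18 under the choice of wild-type set, and none reversed. At that threshold the genes higher in wild type under DTT went from 1 to 0 and those higher in untreated swi3E815X from 6 to 2 (MET13 and STR3). Counting any cluster of a gene, 3 were higher in wild type. The median response of wild type to DTT was -1.04 in the swi3-table set alone and -2.15 in the snf2-table set alone. In the snf2Q928K comparison with DTT, the shifted secondary clusters went from 2 to 1 at the stricter threshold. Centring on the table median, a minimum of 50 mean normalized counts and leaving out clusters of several genes moved no count of calls by over 1.5 times; genes under that minimum (such as MET16) have no value there. The longer window of 500 bases held CACGTG in 20 of 29 genes (7.84% of all main clusters), AACTGTG in 13 (5.92%) and TGACTC in 10 (14.3%). No paired analysis was possible because the files used hold comparisons and no values per library, and leaving out replicates was not run for the same reason. Genes near 10 normalized counts or less in a group, such as MET3, MET16 and MHT1 with DTT, have wide SEs in comparisons within that treatment, where none of these 3 was called.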

Other observations

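The wild-type sets can be set against each other, which no comparison of the study addresses. The log2 ratio of the sets had a robust SD of 0.616 untreated and 0.414 with DTT. This was over 3727 clusters untreated and 3768 with DTT. Each had at least 50 mean normalized counts in the wild-type table and in wild type of that treatment. Untreated, MET16 was higher in the snf2-table set than in the swi3-table set by a derived log2 ratio of 1.73, MET28 by 1.32, MET13 by 0.83 and MUP1 by 0.65, and MET4 was lower (-0.70). With DTT, MHT1 was higher in the snf2-table set by 1.97 and lower were MET28 (-1.77) and MET14 (-0.69). Over the 29 genes the median of this ratio was 0.07 untreated and 0.10 with DTT, with 16 genes above 0 and 13 below in each. These ratios have no SE in the values used here. Those of MET13, MUP1, MET4 and MET14 are of a size common among clusters of at least 50 counts. MET16, MET28 and, with DTT, MHT1 fall under that minimum, so the SD above does not cover them.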
